A study of Mus musculus with 18 samples.

Results

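The genes described here encode the enzyme families that chemically modify foreign and endogenous small molecules in gut, liver and other tissues: the cytochrome P450 families Cyp1 to Cyp4, the carboxylesterases (Ces), the sulfotransferases (Sult), the UDP-glucuronosyltransferases (Ugt) and the glutathione S-transferases (Gst). They were chosen by symbol alone, and 131 genes qualified of 19938 genes that the array held under a single symbol. Cyp2 was the largest family with 44 genes, followed by Gst with 19, Cyp4, Ces and Sult with 16 each, Ugt with 11, Cyp3 with 6 and Cyp1 with 3. Another 19 probe sets carry several symbols and were left out. Cytochrome P450 enzymes oxidize their substrates with electrons from Por, and carboxylesterases split esters and amides. These reactions are called phase I. Phase II enzymes join a polar group to the product: sulfate from Sult, glucuronic acid from Ugt and glutathione from Gst. In the small intestine these enzymes sit mainly in the enterocytes, the absorptive cells, where nuclear receptors such as the pregnane X receptor (Nr1i2) and the constitutive androstane receptor (Nr1i3) induce many of them.

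RNA was measured on 18 mouse arrays of 3 cell classes. The 10 pluripotent arrays were 3 lines of reprogrammed colon tumor cells (RTC 1, 2 and 3, tumor cells returned to pluripotency by induced pluripotent stem cell methods), their derivatives #45 (from RTC 1) and #9 (from RTC 3), embryonic stem cells (ESCs) that were Apc +/+, Apc Min/+ or Apc Min/Min, and S33 ESCs with or without doxycycline (dox). Min is a truncating mutation of Apc, an inhibitor of Wnt signalling. The 2 organoid arrays were small intestinal organoids derived from #45, 1 untreated and 1 given 1 uM 4-hydroxytamoxifen (4-OHT) for 2 days, grown in Matrigel with EGF, Noggin and R-spondin. The 6 embryonic fibroblast (MEF) arrays were 2 pairs of #45-derived MEFs without and with 4-OHT (2 ug/ml for 2 days) and S33 MEFs without and with dox. The study's stated subjects are Apc mutation in several cell types and a mutant beta-catenin, induced in both ESCs and fibroblasts. The labels do not say which allele 4-OHT switches, what was changed in the derivatives, what S33 stands for, or the dose and time of dox. Organoids, #45-derived MEFs and derivative #45 share 1 line of origin, and both S33 cell types carry 1 name.

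Marker genes were read to check the labelled classes, and each list was highest in its own class. The mean log2 level of 8 pluripotency markers was 12.58 to 12.88 on pluripotent arrays and 6.66 to 6.91 elsewhere, that of 10 enterocyte markers was 12.50 and 12.52 on the organoid arrays and 6.82 to 7.16 elsewhere, and that of 8 fibroblast markers was 12.45 to 13 on MEF arrays, 8.47 to 11.19 on pluripotent arrays and 7.38 to 7.74 on organoid arrays. The fibroblast genes on pluripotent arrays move with some results below and are given beside them. The deposited values also fell into 4 sets that appear to have been processed apart. The largest set held 9 arrays with 11660 to 14297 distinct values each: the 3 RTCs, derivative #45, Apc Min/+ ESCs, both organoid arrays and the first pair of #45-derived MEFs. In a second set, derivative #9 and the second MEF pair had the same value, to the last digit, for 9.52% to 19.2% of probe sets. Apc +/+ and Apc Min/Min ESCs had 17.3% in common, and the 4 S33 arrays made up the last set. Results are therefore given within the largest set too where that changes them.

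Levels below are log2 intensities after quantile normalization of all 18 arrays, and a gene is called above the median where it lay above its array's median of 7.93. The same gene can be compared across arrays, whereas levels of different probe sets cannot be compared with each other. Of the 131 genes, 15 were above the median on all 18 arrays, 60 on some and 56 on none. The 56 included Cyp1a1 and Cyp1a2, the classical targets of the aryl hydrocarbon receptor, and Sult1a1, the phenol sulfotransferase. By family, 12 of 19 Gst genes were above the median on every array, against 2 of 16 Cyp4 genes, 1 of 44 Cyp2 genes and none of the genes of Ces, Sult, Ugt, Cyp1 and Cyp3. On at least 1 organoid array, 67 genes were above the median, compared with 31 on at least 1 MEF array and 30 on at least 1 pluripotent array. For 38 of them this held on organoid arrays only: 12 Cyp2, 3 Cyp3, 3 Cyp4, 9 Ces, 4 Sult, 6 Ugt and 1 Gst. The 56 genes above the median on none lay between 4.60 and 7.89, with a median of 5.92 over all arrays. Where a gene was below the median on all arrays of a class, its level there may be background, so its difference from that class may understate the change, and sizes of such differences are not ranked between genes.

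**Figure D1:**
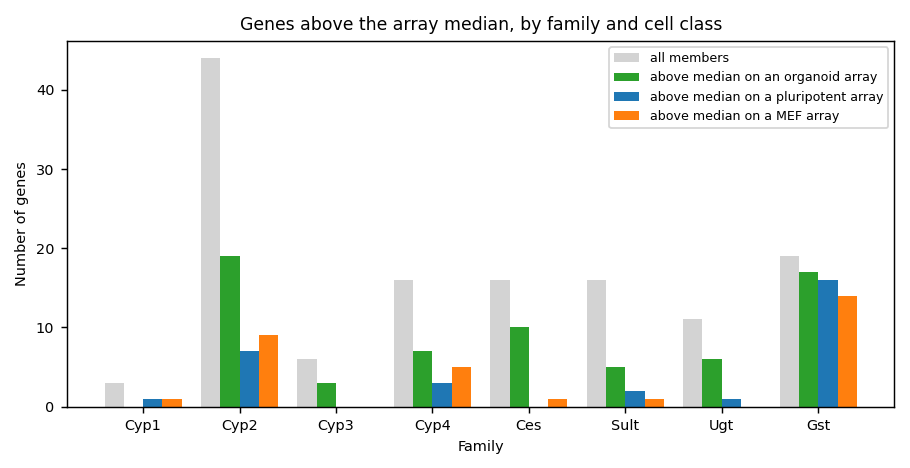
Number of genes (vertical axis) in each enzyme family (horizontal axis): all members in grey, and those above the array median on at least 1 of 2 organoid (green), 10 pluripotent (blue) or 6 MEF (orange) arrays. The 3 Cyp3 genes and 6 Ugt genes in green have no or 1 counterpart in the other classes, whereas Gst has 17, 16 and 14.

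**Figure D2:**
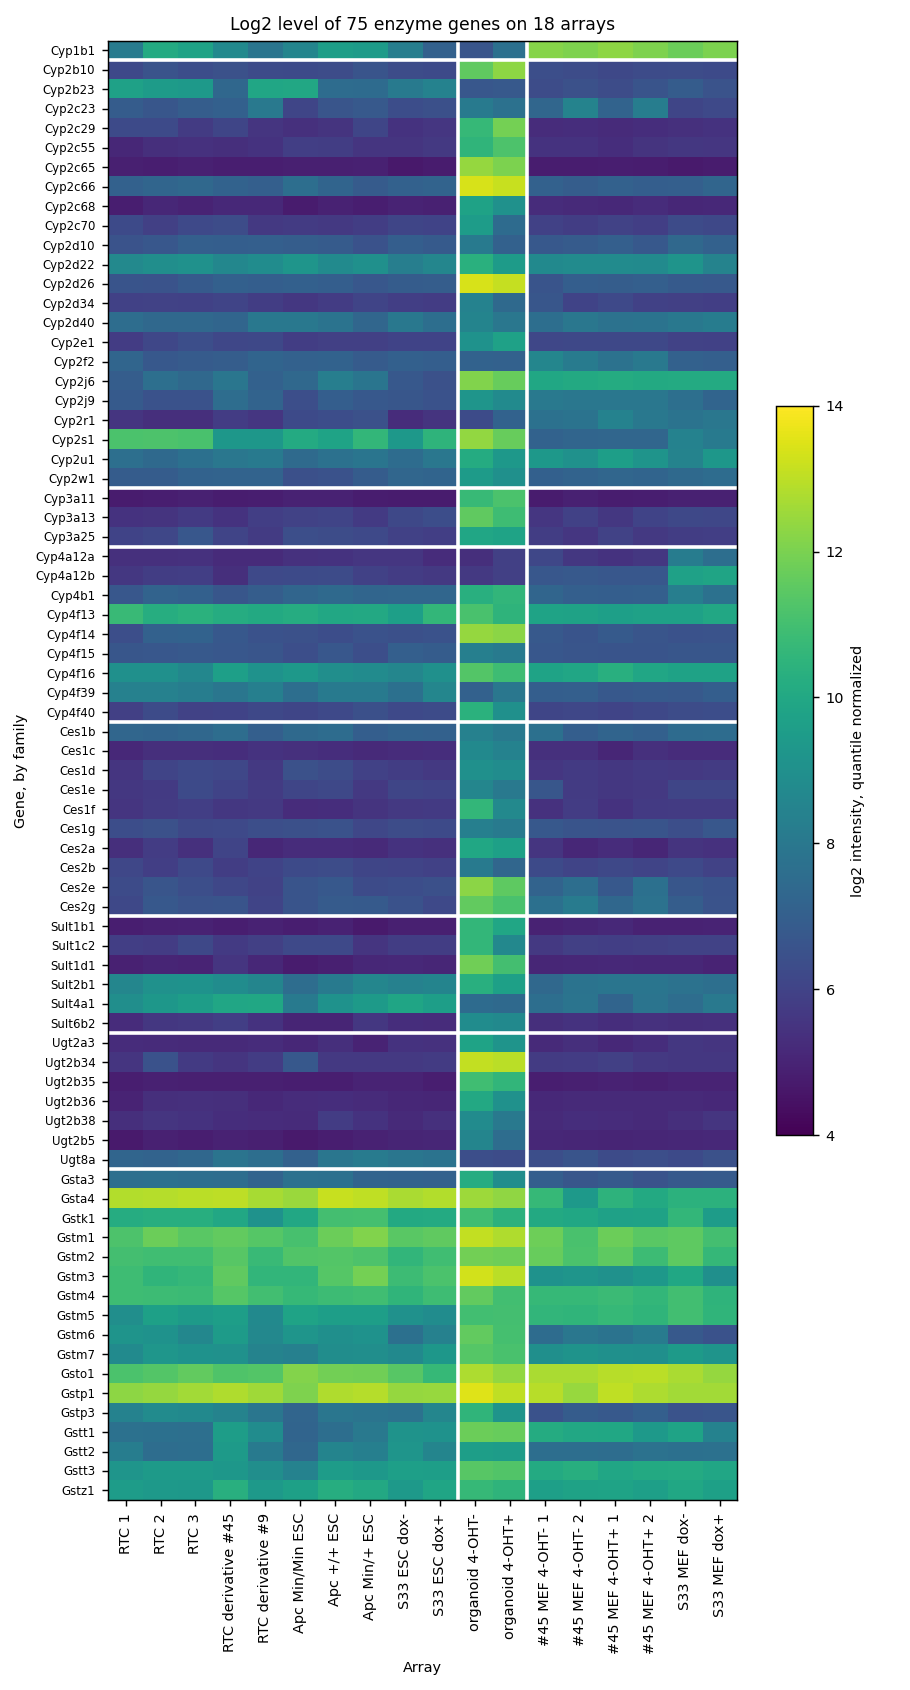
Log2 intensity (colour, quantile normalized) of the 75 genes that were above the median on at least 1 array, by family (rows, families parted by white lines) on each of the 18 arrays (columns, cell classes parted by white lines). Colours are to be compared along a row; most Cyp2c, Cyp3, Ces, Sult and Ugt rows are bright in the 2 organoid columns only, and most Gst rows are bright throughout.

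Most measured members were higher in organoids than in both other classes. With limma over all 18 arrays (adjusted p under 0.05 over 13937 genes), 63 of 75 measured members were higher in organoids than in pluripotent cells and 5 were lower, where 25% of all genes tested were called higher and 27.2% lower. Against MEFs, 60 were higher and 3 lower, where 25.4% and 26.2% of all genes were. Against both classes, 57 members were higher and 1 lower, compared with 14.1% and 12.2% of all genes tested. The 38 members above the median on organoid arrays only entered the comparison through the class in which they were high, so these counts describe the 75 measured members and not the families. Without that filter, 83 of all 131 members were called higher and 7 lower than in pluripotent cells, and 75 were higher and 4 lower than in MEFs, where 21.9% and 19.8%, and 20.1% and 19.4%, of all 19938 genes were. As deposited, without further scaling, all genes tested shifted by a median of -0.432 against pluripotent cells and -0.434 against MEFs, which turned the split of all genes to 1744 higher and 5410 lower against pluripotent cells and 1619 and 5206 against MEFs (3485 and 3789, and 3534 and 3654, after quantile normalization). Members stayed at 55 higher and 6 lower, and 51 and 4. Centring arrays on their median gave 4011 higher and 2873 lower among all genes against pluripotent cells, and 64 and 4 among members. Within the largest processing set 63 were higher than in pluripotent cells and 58 higher than in MEFs. Both counts are given without the share of all genes called in that set. They show only that the number of members called higher hardly changed.

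Cyp3a genes encode the most broadly acting P450 enzymes of gut and liver, and the 3 measured ones were above the median on organoid arrays only. Cyp3a11 was at 10.74 without and 11.17 with 4-OHT. Its lowest, median and highest levels were 4.74, 4.82 and 4.97 in pluripotent cells and 4.77, 4.88 and 4.93 in MEFs. The difference was 6.11 ± 0.11 (SE) against pluripotent cells and 6.09 ± 0.12 against MEFs (limma adjusted p = 1.53e-18 and 4.25e-18), and no array of another class came near. The fit pools the spread of the 3 classes, and most arrays are not organoids. Such an SE and p thus rest mainly on arrays where the gene may be at background. The SD was 0.09 in pluripotent cells, 0.07 in MEFs and 0.30 over the 2 organoid arrays. The same applies to the other genes above the median on organoid arrays only. Cyp3a13 stood at 11.54 without and 10.91 with 4-OHT, with at most 6.38 on other arrays, and Cyp3a25 at 9.94 without and 9.79 with 4-OHT, with at most 6.71. The other 3 Cyp3 genes were below the median on every array.

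Cyp2c genes lie side by side on mouse chromosome 19 and encode oxidases of drugs and fatty acids. Cyp2c65 was at 12.43 without and 12.02 with 4-OHT and between 4.69 and 4.92 on all 16 other arrays, a difference of 7.43 ± 0.11 against MEFs (limma adjusted p = 1.67e-19). Cyp2c66 was at 13.39 without and 13.18 with 4-OHT, against medians of 7.15 in pluripotent cells and 7.06 in MEFs. Cyp2c29 was at 10.71 without and 11.89 with 4-OHT and Cyp2c55 at 10.54 without and 11.20 with 4-OHT, and neither passed 6.26 elsewhere. Cyp2c68 and Cyp2c70 were also called higher in organoids, by 4.44 ± 0.14 and 2.55 ± 0.31 against pluripotent cells. Cyp2c23 was not: it was at 8.09 without and 7.74 with 4-OHT, but derivative #9 and the second MEF pair reached 8.04, 8.47 and 8.26, the 3 arrays of the second processing set, and set and sample cannot be told apart there (limma adjusted p = 0.0713 against pluripotent cells). Coding sequences in the Cyp2c, Cyp3a, Cyp4f, Ces1, Ugt2b and Gstm families resemble each other closely, and whether a probe set reads only its named gene was not tested.

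Promoters were searched for 4 short motifs in the 250 bases before each RefSeq start (assembly GRCm38.p6), on both strands. Of the 131 genes, 107 matched the table, with 126 promoters among 32851 in all. CAAAGTCCA, a motif of Hnf4 factors, was in 6 member promoters (4.76%) and in 0.384% of all promoters, and all 6 belong to Cyp2c or Cyp3a genes: Cyp2c65, Cyp2c67, Cyp2c68, Cyp2c70, Cyp3a11 and Cyp3a16. Cyp2c67 and Cyp3a16 were above the median on no array. The promoters of Cyp2c67 and Cyp2c68 are nearly alike around the match, so the 6 are not independent. Enrichment of the motif was not tested. Hnf4a, the intestinal and hepatic factor, was itself at a mean of 13.22 in organoids and 7.92 in pluripotent cells (difference 5.30 ± 0.28, limma adjusted p = 7.54e-12). GCGTG, the core of the aryl hydrocarbon receptor element, was in 16.7% of member promoters and 28.2% of all, TGACNNNGC, the antioxidant element core, in 3.97% and 10.2%, and CTTTGAT, the Tcf/Lef motif, in 3.97% and 3.21%. The 130 bases before the start of 4 organoid genes with the Hnf4 motif are shown so that its place can be compared. Cyp2c29 and Gsta3, which differ between the organoid arrays below and were picked for that, follow with a Tcf/Lef and an antioxidant match. The Tcf/Lef match was also in Cyp2c39, Sult2a8 and Ugt8a, all below the median on both organoid arrays. The antioxidant match was also in Cyp4f18, likewise below the median there, and in Cyp4f14, Gstm5 and Gstm7. Those last genes differed by only -0.16, 0.03 and -0.225 with 4-OHT. Capitals mark a match to 1 of the 4 motifs on either strand, and the run reads 5′ to 3′ on the gene's strand up to the base before the start. The first capitals of Cyp2c68 are GCGTG on the other strand. The sites lie 116, 77, 64 and 109 bases before the start in Cyp2c65, Cyp2c68, Cyp2c70 and Cyp3a11, and 119 and 121 bases before it in Cyp2c29 and Gsta3. A match is a description of the letters, not of binding.
Cyp2c65, chr19:39060876-39061005, plus strand: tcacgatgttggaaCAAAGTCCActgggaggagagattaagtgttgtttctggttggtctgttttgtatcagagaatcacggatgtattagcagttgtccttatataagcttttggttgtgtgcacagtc
Cyp2c68, chr19:39741102-39741231, minus strand: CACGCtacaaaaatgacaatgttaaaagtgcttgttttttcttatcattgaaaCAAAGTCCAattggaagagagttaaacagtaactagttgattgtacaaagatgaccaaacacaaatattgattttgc
Cyp2c70, chr19:40187287-40187416, minus strand: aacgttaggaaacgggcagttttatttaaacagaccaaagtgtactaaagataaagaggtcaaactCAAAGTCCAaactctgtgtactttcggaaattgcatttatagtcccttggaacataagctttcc
Cyp3a11, chr5:145879855-145879984, minus strand: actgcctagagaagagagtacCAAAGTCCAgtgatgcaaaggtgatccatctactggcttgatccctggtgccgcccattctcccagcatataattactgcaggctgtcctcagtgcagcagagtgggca
Cyp2c29, chr19:39286955-39287084, plus strand: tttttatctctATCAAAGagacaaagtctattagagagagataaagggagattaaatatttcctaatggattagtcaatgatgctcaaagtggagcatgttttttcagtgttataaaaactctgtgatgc
Gsta3, chr1:21240455-21240584, plus strand: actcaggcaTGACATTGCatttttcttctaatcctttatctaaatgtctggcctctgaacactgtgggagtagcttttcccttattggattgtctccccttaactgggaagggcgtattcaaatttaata

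Among the other Cyp2 genes, Cyp2d26 was at 13.40 without and 13.12 with 4-OHT, with the highest other array at 7.07. Cyp2b10, a standard target of the constitutive androstane receptor, was at 11.57 without and 12.30 with 4-OHT and between 6.21 and 6.61 on the 10 pluripotent arrays. Cyp2e1, the ethanol-oxidizing P450, was at 9.11 without and 9.71 with 4-OHT, and its difference was 3.40 ± 0.16 against pluripotent cells. Cyp2j6 had 3 separate levels: 6.49, 7.38 and 8.28 (lowest, median, highest) in pluripotent cells, 9.96, 10.10 and 10.13 in MEFs, and 12.12 without and 11.66 with 4-OHT in organoids. Each step was called, at 2.70 ± 0.22 from pluripotent cells to MEFs and 1.81 ± 0.34 from MEFs to organoids (limma adjusted p = 3.5e-09 and 0.00021). Cyp2s1, an epithelial P450, ran the other way in MEFs, with 7.16, 7.29 and 8.45 there, 9.29, 10.30 and 11.20 in pluripotent cells and 12.36 without and 11.66 with 4-OHT in organoids. Its difference between organoids and pluripotent cells, 1.76 ± 0.50, was not called without the untreated organoid array (adjusted p = 0.119).

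In Cyp4, whose enzymes hydroxylate fatty acids and eicosanoids, 6 of 9 measured genes were higher in organoids than in both other classes. Of the 6, 3 were above the median on organoid arrays only. Cyp4f14 was at 12.40 without and 12.24 with 4-OHT, against at most 7.15 elsewhere. Cyp4b1 was at 10.30 without and 10.58 with 4-OHT, and S33 MEFs without dox came next at 8.26. Cyp4f40 was at 10.39 without and 9.00 with 4-OHT, with a difference of 3.54 ± 0.22 against pluripotent cells. Cyp4f13 was above the median on all 18 arrays; its difference of 0.61 ± 0.22 against pluripotent cells was not called within the largest processing set (adjusted p = 0.0852), as deposited (0.454) or without the untreated organoid array (0.442).

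All 10 measured carboxylesterases were higher in organoids than in either other class, with a median difference of 3.13 against pluripotent cells and 3.29 against MEFs. Of these, 9 were above the median on organoid arrays only and so entered the comparison through the class in which they were high. The count and medians therefore describe the measured genes and not the family. Over all genes tested, 14.1% were called higher in organoids than in both other classes. Ces2e was at 12.26 without and 11.53 with 4-OHT, against 5.96, 6.39 and 6.74 in pluripotent cells and 6.51, 6.98 and 7.67 in MEFs. Ces2a, of the class of esterases known to process drugs in the gut, was at 9.96 without and 9.69 with 4-OHT, with a difference of 4.40 ± 0.19 against pluripotent cells (limma adjusted p = 5.26e-13). Ces1d, a lipase of liver and fat, was at 9.04 without and 8.86 with 4-OHT, and no other array passed 6.48. Ces2g was at 6.57, 7.53 and 8.16 in MEFs, 6.05, 6.57 and 6.86 in pluripotent cells and 11.61 without and 11.12 with 4-OHT in organoids. The 4 #45-derived MEFs lay above all pluripotent arrays, whereas S33 MEFs with dox, at 6.57, lay among them (MEF minus pluripotent 0.91 ± 0.20, limma adjusted p = 0.000527). The other 6 Ces genes were below the median on all arrays.

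Of 6 measured sulfotransferases, 5 were higher in organoids than in both other classes, 4 of them above the median on organoid arrays only. Sult1d1 was at 11.82 without and 11.02 with 4-OHT and Sult1b1 at 10.61 without and 9.91 with 4-OHT, and no other array passed 5.56 for the former or 5.14 for the latter. Sult2b1, which sulfates cholesterol, was at 10.30 without and 9.68 with 4-OHT, and its pluripotent levels of 7.59, 8.57 and 9.08 lay above the MEF levels of 7.39, 7.78 and 7.90 except for the lowest of them. The sixth, Sult4a1, a form known from brain, was highest in pluripotent cells. Among the Ugt genes, all 5 measured Ugt2b genes and Ugt2a3 were higher in organoids than in both other classes. All 6 were above the median on organoid arrays only, and so were measured through that class. Ugt2b34 was at 13.10 without and 12.98 with 4-OHT, with a difference of 7.32 ± 0.27 against MEFs. Ugt2b35 was at 10.95 without and 10.58 with 4-OHT, with the 16 other arrays between 4.83 and 5.01.

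The glutathione S-transferases were measured in all classes. Of 17 measured, 11 were higher in organoids than in both others, by less than most genes above: the median difference over the family was 1.41 against pluripotent cells and 1.49 against MEFs. Gstm3 has 2 probe sets, and that with the higher mean was read. It was at 13.33 without and 12.96 with 4-OHT, against 10.56, 10.89 and 11.89 in pluripotent cells and 9.00, 9.14 and 9.95 in MEFs. The 3 classes did not overlap there. Gstm1 was at 13.08 without and 12.80 with 4-OHT, and pluripotent cells and MEFs overlapped around means of 11.53 ± 0.29 (SD, n = 10) and 11.45 ± 0.31 (SD, n = 6). Gsta4, which clears the lipid peroxidation product 4-hydroxynonenal, was low only in MEFs, at 9.40, 10.44 and 10.71, against 12.49, 12.87 and 13.15 in pluripotent cells (difference -2.61 ± 0.15, limma adjusted p = 7e-11). Gsta4 in organoids, at 12.52 without and 12.36 with 4-OHT, was not called different from pluripotent cells in the fit of all arrays (-0.43 ± 0.23, adjusted p = 0.125) but was within the largest processing set (-0.51, adjusted p = 0.00971). Gsto1 and Gstm5 were lowest in pluripotent cells, with MEF minus pluripotent differences of 1.28 ± 0.17 and 1.31 ± 0.16; the organoid difference of Gsto1 was lost without the untreated organoid array (adjusted p = 0.0509). The members with the smallest range over the 18 arrays, among those above the median on all of them, were Gstm4 (1.08), Gstm2 (1.27), Gstz1 (1.36), Gstp1 (1.44) and Cyp4f13 (1.499 log2 units).

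Other genes of the pathway were counted from lists of receptors, partners and transporters. Of 13 measured receptors, sensors and transcription factors, a list that includes the intestinal factors Cdx1, Cdx2 and Hnf4a, 11 were called higher in organoids than in pluripotent cells and 1, Arnt, lower; Nr1i2 was 3.41 ± 0.17 higher (limma adjusted p = 4.16e-12) and Nr1i3 2.23 ± 0.15 higher (3.13e-10). Of 8 genes that supply sulfate, glucuronic acid or glutathione, 6 were higher and 0 lower, led by Papss2, the sulfate activating enzyme, at 4.14 ± 0.48. Among 11 measured further enzymes 8 were higher and 0 lower, including Adh1 by 6.39 ± 0.47, whereas of 7 efflux transporters 3 were higher (Abcb1a, Abcc2, Abcc3) and 2 lower (Abcb1b, Abcg2). Of 4 redox partners of P450, 2 were higher and 1 lower. These counts stand beside the 25% and 27.2% of all genes called higher and lower. Nr1i2, Nr1i3, Nr1h4, Ppara, Mgst2 and Abcc2 were above the median on organoid arrays only, and so were measured through that class. Against MEFs, where the shares of all genes were 25.4% and 26.2%, 7 of the 13 receptors and factors were higher and 1, Ahrr, lower, and 3 of the 8 supply genes were higher and 0 lower. Of the further enzymes 8 were higher and 1, Ephx1, lower, of the transporters 3 were higher and 2 lower, and of the redox partners 2 were higher and 2 lower. Hepatocytes express many of the same enzymes. Of 7 hepatocyte markers on the array, 4 (Alb, Apob, Cps1, Ttr) were measured and all 4 were called higher in organoids. These 4 were above the median on organoid arrays only, so they were measured through the class in which they were high. The other markers of the list were below the median on every array. Enterocytes also express Apob and Cps1. The list's mean level was 9.22 and 9.35 in organoids against 6.33 to 6.54 elsewhere. Its part in the result was not tested.

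Between MEFs and pluripotent cells, 18 of the 75 members were called higher in MEFs and 16 lower, where 37.3% and 32.6% of all genes tested were. Of the 75, 38 were above the median on organoid arrays only, so their levels in both classes compared here may be background. These counts, and those of members highest or lowest in MEFs below, therefore describe the measured set and not the families. Cyp2w1, Cyp3a25, Gsta3 and Gstt2 lost that call within the largest processing set (adjusted p 0.0894 to 0.384). Of 6 immune markers, Csf1r and Ptprc were called higher in MEFs and Cd3e lower. The list's mean level was 10.57 and 10.39 in the first pair of #45-derived MEFs, 8.46 and 8.32 in the second and 7.28 and 7.17 in S33 MEFs, and its part in the members' differences was not tested. Few members were highest outside the organoids. Cyp1b1, which oxidizes polycyclic aromatic compounds and estradiol and is known from mesenchymal tissue, was highest in MEFs, where it was 11.77, 12.06 and 12.31 (lowest, median, highest). It was at 7.10, 8.65 and 10.12 in pluripotent cells and at 6.65 without and 7.67 with 4-OHT in organoids. The difference between MEFs and pluripotent cells was 3.29 ± 0.37 (limma adjusted p = 2.35e-07). The organoid minus pluripotent difference was -1.61 ± 0.55 (adjusted p = 0.0197), a call lost without the untreated organoid array (adjusted p = 0.272). Cyp2r1, a vitamin D 25-hydroxylase, was at 7.71, 7.88 and 8.44 in MEFs and at 5.29, 5.57 and 6.46 in pluripotent cells, with organoids at 6.28 without and 7.13 with 4-OHT, so that the untreated array lay in the pluripotent range. The organoid minus MEF difference of -1.24 ± 0.31 was lost without the untreated organoid array (adjusted p = 0.118). Cyp4a12b was highest in S33 MEFs, at 9.71 without and 9.82 with dox, whereas the 4 #45-derived MEFs were at 6.70 to 6.79, still above every pluripotent and organoid array; its near copy Cyp4a12a was at 8.21 and 7.63 in the same 2 arrays. Its difference between organoids and MEFs was not called without either organoid array (adjusted p = 0.141 and 0.0902). Over all genes tested, 20.1% were called highest in MEFs and 14% lowest there, against 3 and 13 of 75 members.

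Pluripotent cells had the highest level of 4 of the 75 members, where 16% of all genes tested were called highest there: Cyp2b23, Cyp4f39, Sult4a1 and Ugt8a, the ceramide galactosyltransferase. The 38 members above the median on organoid arrays only limit this count as well. Sult4a1 was at 8.11, 9.49 and 9.94 in pluripotent cells, 7.21, 7.72 and 8.06 in MEFs and 7.49 without and 7.41 with 4-OHT in organoids; its lowest pluripotent array, Apc Min/Min ESCs, was close to the highest MEF array. The difference from pluripotent cells was -1.93 ± 0.34 in organoids and -1.69 ± 0.22 in MEFs (limma adjusted p = 9.67e-05 and 1.98e-06). Ugt8a was at 7.10, 7.71 and 8.15 in pluripotent cells, which overlapped neither its MEF levels of 6.25, 6.42 and 6.59 nor those of organoids, 6.41 without and 6.34 with 4-OHT. The Cyp4f39 call against organoids (-0.59 ± 0.23) was lost without the untreated array (adjusted p = 0.68). Cyp2b23 was called against organoids with both arrays only (adjusted p = 0.00927; 0.0616 and 0.0785 with 1), and its pluripotent arrays fell into high and low values, described next. Lowest in pluripotent cells were 14 members (13% of all genes), among them Cyp2j6, Cyp2u1, Gstt1 and Gsto1.

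**Figure D3:**
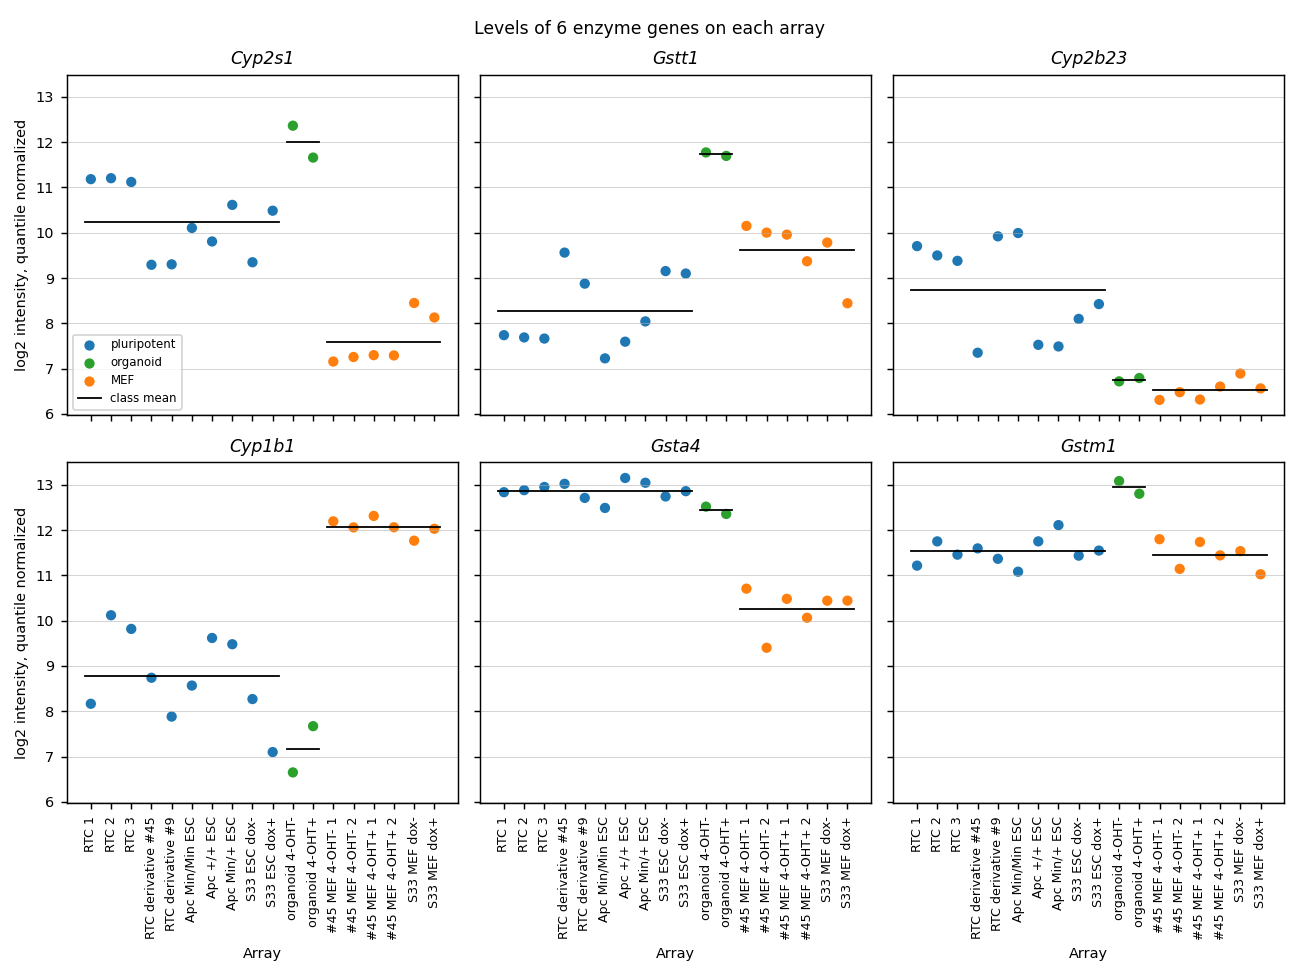
Log2 intensity (vertical axis, quantile normalized) of 6 genes on each of the 18 arrays (horizontal axis, 1 point per array), with pluripotent arrays in blue, organoids in green, MEFs in orange and black lines at class means. Cyp2s1 is at 11.12 to 11.20 in the 3 RTC lines and 9.29 and 9.30 in the 2 derivatives; Cyp1b1 is highest and Gsta4 lowest in MEFs.

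Within the pluripotent class, RTCs were set against ESCs, a comparison that addresses the question in the series text of how alike they are. With 3 RTC lines against 3 ESC arrays (S33 without dox, Apc Min/+ and Apc +/+), 3 of 28 measured members were called higher and 1 lower, where 3.21% and 3.48% of all 12080 genes tested were. The split of all genes moved with the scaling, from 388 higher and 420 lower to 213 and 145 as deposited and 272 and 595 centred, and members from 3 and 1 to 2 and 0, and 2 and 1. Cyp2b23 was at 9.70, 9.498 and 9.38 in RTC 1, 2 and 3, and at 7.53 in Apc +/+, 7.49 in Apc Min/+ and 8.10 in S33 ESCs. These groups did not overlap, and the difference of 1.82 ± 0.19 (SE; limma adjusted p = 0.00355) was also called without any 1 array. In the largest processing set, where Apc Min/+ ESCs are the only ESC array, it was 2.04 (adjusted p = 0.0245). High and low values did not follow the labelled groups, though. Derivative #9, from RTC 3, stayed high at 9.92, derivative #45, from RTC 1, was low at 7.35, and Apc Min/Min ESCs were at 9.99. The Cyp2b23 difference between RTCs and derivatives was 0.89 ± 0.63 (limma adjusted p = 0.6).

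Cyp2s1 was at 11.18, 11.20 and 11.12 in the RTCs, at 9.81 in Apc +/+, 10.61 in Apc Min/+ and 9.35 in S33 ESCs. RTCs were higher on every array, by 1.25 ± 0.29 (limma adjusted p = 0.0482). The call rested on the set of arrays: it was lost without RTC 1, 2 or 3 or Apc +/+ ESCs (adjusted p 0.115 to 0.144), with arrays centred on their median (0.0875), with no filter (0.0535), and within the largest processing set, where the difference from Apc Min/+ ESCs alone was 0.55 (0.207). Both derivatives were lower, at 9.29 and 9.30. The difference of 1.87 ± 0.17 from derivatives to RTCs had an adjusted p of 0.00434 in limma and was called without any 1 of the 5 arrays, with adjusted p up to 0.0397. Without derivative #9, the fit that also holds only arrays of the largest set, it was 1.88 (adjusted p = 0.0252) against derivative #45 alone.

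Gstp3 was at 8.45, 8.82 and 8.75 in RTCs, 7.91 in Apc +/+, 7.86 in Apc Min/+ and 7.78 in S33 ESCs, a difference of 0.82 ± 0.14 (limma adjusted p = 0.0175). Ugt8a was lower in RTCs, at 7.28, 7.20 and 7.35 against 7.92, 8.15 and 7.91 in the same order, a difference of -0.72 ± 0.13 (adjusted p = 0.019). Neither pair of groups overlapped, but some pluripotent arrays outside the comparison reached the RTC levels. Gstp3 was at 8.59 in S33 ESCs with dox and 8.46 in derivative #45, against 7.945 in derivative #9 and 7.25 in Apc Min/Min ESCs. Ugt8a was at 7.10 in Apc Min/Min ESCs, below every RTC array, against 7.84 in derivative #45, 7.62 in derivative #9 and 7.80 in S33 ESCs with dox. Both calls were lost without RTC 2 (adjusted p = 0.0733 for Gstp3 and 0.0877 for Ugt8a), RTC 3 (0.0867 and 0.0809) or Apc +/+ ESCs (0.0546 and 0.0567), within the largest set (0.169 and 0.097) and as deposited (0.207 and 0.651), and Gstp3 also without Apc Min/+ ESCs (0.0716). Of 6 immune markers, 4 were measured in this comparison and 3 were called higher in RTCs. The list's mean level was 8.39 to 9.30 in the RTCs and 7.74 to 8.09 in these ESCs, and its part in the differences was not tested. For fibroblast markers the means were 9.28 to 9.94 and 9.51 to 10.75, and 0 of 8 were called. Of the 8 genes measured here on the list of receptors and factors, the intestinal factors Cdx1, Cdx2 and Hnf4a were called higher in RTCs and Ahr lower.

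Against the derivatives, 1 of 29 measured members, Cyp2s1, was called higher in RTCs and 1 lower, where 0.838% and 0.762% of all 11940 genes tested were (100 and 91, or 58 and 23 as deposited). The lower gene was Gstt1, a theta-class transferase. It was at 7.74, 7.69 and 7.66 in RTCs and at 9.56 in #45 and 8.88 in #9, which gave -1.52 ± 0.23 (limma adjusted p = 0.0304). That call was lost without any 1 RTC array (adjusted p 0.0781 to 0.114) and as deposited (0.221). Gstt1 varied among ESCs too, at 7.23 in Apc Min/Min, 7.59 in Apc +/+, 8.04 in Apc Min/+ and 9.15 in S33 ESCs without dox. RTC arrays enter both of these comparisons.

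In the organoids, 4-OHT was compared on 1 array per arm, so the differences have no replicate check and no test of their own. Of 67 measured members, 59 were lower with 4-OHT in value, and 7 were at least 2-fold lower and 1 at least 2-fold higher, where 0.746% and 2.1% of all 11397 genes were. Only 60 of the 67 were above the median on both arrays. Ces2b, Cyp2c23, Cyp2c70, Cyp2d10, Cyp2d34 and Ugt2b5 were measured through the untreated array only, and Cyp4f39 through the treated one only. Each thus entered through the arm in which it was high. Cyp2c70 and Cyp2d34 are among the genes 2-fold lower. The median difference of the members was -0.412 on the log2 scale and that of all genes 0.00261. The 2 arrays differed in brightness, with deposited medians of 218 without and 142 with 4-OHT, and the scaling moved all genes together: their median was -0.225 as deposited and 0.400 with arrays centred on their median. Without quantile normalization the split of all genes 2-fold apart thus went from 239 higher and 85 lower to 104 and 622 as deposited, and to 575 and 38 centred, and that of members from 1 and 7 to 1 and 17, and 3 and 5. Relative to the median of all genes, the members' median was -0.414, -0.477 and -0.477 under quantile, deposited and centred scaling, and 59, 57 and 57 of the 67 lay below it. In raw direction, only 38 of 67 were below 0 when arrays were centred.

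**Figure D4:**
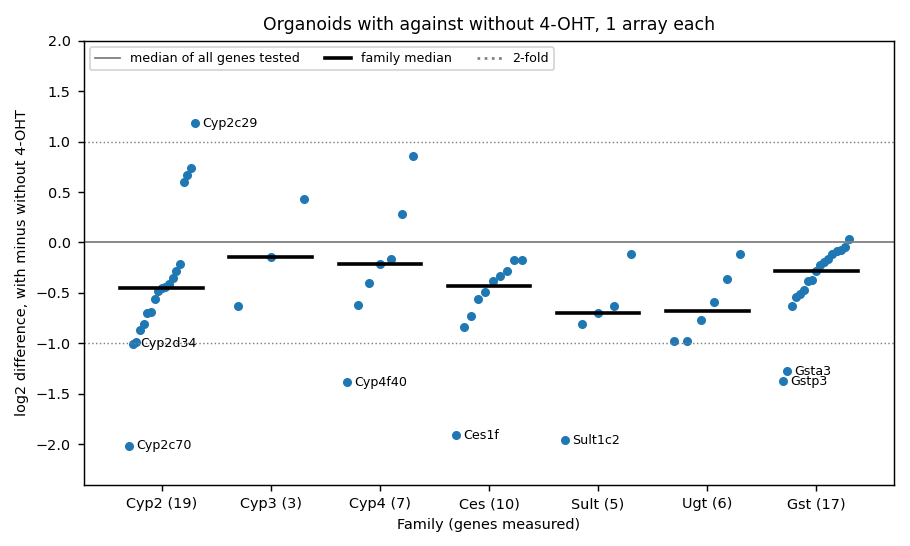
Log2 difference between the organoid array with and the one without 4-OHT (vertical axis, 1 point per gene) for the 67 measured members by family (horizontal axis, number of genes in brackets), with black bars at family medians, a grey line at the median of all genes and dotted lines at 2-fold. Under this normalization every Ces, Sult and Ugt point lies below 0, against 8 of 10, 4 of 5 and 4 of 6 genes with arrays centred on their median, and Cyp2c29 is the only point above the upper dotted line.

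The lower genes came from 5 families. Cyp2c70, an oxidase that makes muricholic acids in mouse bile acid synthesis, went from 9.52 without to 7.51 with 4-OHT, a difference of -2.01. Sult1c2 went from 10.63 to 8.67 (-1.96) and Ces1f from 10.62 to 8.71 (-1.91). Each of these 3 stayed above its level on all 16 other arrays, but Cyp2c70 with 4-OHT was below the array median of 7.93. Cyp4f40 went from 10.39 to 9.00 (-1.39). Glutathione transferases followed, Gstp3 from 10.55 to 9.17 (-1.38) and Gsta3 from 10.18 to 8.90 (-1.28). Cyp2d34 was just inside the 2-fold line at -1.003, and Cyp2d10 (-0.99), Ugt2b5 (-0.98) and Ugt2b36 (-0.97), chosen here for lying next to it, were just outside. Cyp2d34 and Gsta3 were under 2-fold with arrays centred (-0.97 and -0.93). With 4-OHT, Cyp2d34, Cyp2d10 and Ugt2b5 were also below the array median.

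By family, all 10 Ces genes (median -0.433), all 5 Sult genes (-0.699), all 6 Ugt genes (-0.677) and 16 of 17 Gst genes (-0.280) were lower in value under quantile normalization. With arrays centred on their median these were 8 Ces (median -0.221), 4 Sult (-0.244) and 4 Ugt genes (-0.437), and only 6 Gst genes, whose median turned to 0.189. The median of all genes lay at 0.400 there. Under quantile normalization, Ces2b and Ugt2b5 were above the median on the untreated array only and entered through it. Most differences were small: Ces2a, for example, went from 9.96 to 9.69 and Ugt2b34 from 13.10 to 12.98. Cyp2 and Cyp3 were split. Cyp2c29 was higher with 4-OHT, from 10.71 to 11.89 (1.18), as the only measured member past 2-fold in that direction. None of the other measured members above 0 was 2-fold higher. These were Cyp4f39 (0.86), Cyp2b10 (0.73), Cyp2c55 (0.66), Cyp2e1 (0.60), Cyp3a11 (0.43), Cyp4b1 (0.28) and Gstm5 (0.03). Within the measured Cyp2c genes, then, Cyp2c29 and Cyp2c55 lay above 0 and Cyp2c23, Cyp2c65, Cyp2c66, Cyp2c68 and Cyp2c70 below it, down to -2.01. Of members below the median on both organoid arrays, Cyp1b1 (6.65 to 7.67) and Cyp3a44 (6.47 to 7.51) were 2-fold higher. Cyp2d13 (7.17 to 6.15) was 2-fold lower. These levels may be background.

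Markers of the organoid cell types were counted the same way, and no test compared the lists. The median difference was -0.197 over 10 enterocyte markers, whose mean level was 12.52 without and 12.50 with 4-OHT, and 0.0722 over 8 stem and secretory markers, with 0 of each list 2-fold apart. Among the pathway genes, 1 of 11 measured further enzymes was 2-fold lower: Nqo1, a quinone reductase and standard target of Nfe2l2, from 10.35 to 8.72. Of 12 receptors and factors, 8 glutathione, sulfate and glucuronate supply genes, 6 transporters and 4 redox partners measured, 0 were 2-fold apart. Nr1i3 was at 9.13 without and 8.40 with 4-OHT, Nr1i2 at 10.34 and 10.26, and Hnf4a at 13.22 and 13.21. The part of any of these in the members' differences was not tested, and in bulk RNA fewer cells of a type and less RNA per cell cannot be told apart.

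A fit that borrows the spread of the 2 MEF pairs for the organoids (limma over the 6 arrays of #45-derived cells, 2 residual degrees of freedom, added after the data were seen) called 0 of 70 members, and 1 gene higher and 1 lower of 12995. At an unadjusted p under 0.05 it had 27 members lower and 8 higher, where 8.36% and 8.85% of all genes were. For Cyp2c70 the difference was -2.01 and for Sult1c2 -1.96. Both genes were below the median on every MEF array, so the spread borrowed for them may be that of background. The difference between the organoid and the MEF response was called for 0 genes by limma (1684 genes, 30 of them members, at an unadjusted p under 0.05). This fit assumes that organoid arrays vary as MEF arrays do. The 2 MEF pairs lie in different processing sets and both organoid arrays in 1, so their spread need not match. Its counts therefore cannot decide whether members' organoid differences exceed the spread among organoids.

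In MEFs, 4-OHT was tested on 2 against 2 arrays and limma called 0 of 26 measured members higher and 0 lower, where 0% of all 11603 genes were called in either direction. At an unadjusted p under 0.05 there were 519 genes, 1 of them a member. The lowest adjusted p over all genes was 0.835. Members' differences ran from -0.456 to 0.458. Cyp1b1 was at 12.19 and 12.06 without and 12.31 and 12.06 with 4-OHT. Gsto1 was at 12.72 and 12.71 without and 12.92 and 12.96 with 4-OHT. With the processing set, which here equals the pair, as a block, 54 of all genes were called higher and 94 lower, and still 0 members. Cyp2c70 was between 5.82 and 5.98 on these 4 arrays.

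The remaining contrasts had 1 array per arm. In ESCs, the Min mutation on both Apc alleles was set against none. Apc Min/Min ESCs had 1 of 25 measured members at least 2-fold higher and 3 lower than Apc +/+ ESCs, where 4.6% and 5.65% of all genes were. As deposited the split of all genes was 449 higher and 848 lower, from 524 and 644. Scaling left the higher count of members at 1 and moved the lower count to 5, both as deposited and centred. Cyp2b23 went from 7.53 in Apc +/+ to 9.99 in Apc Min/Min (2.47). The theta-class transferases Gstt2 and Gstt3 were lower, from 8.52 to 7.32 and from 9.51 to 8.45, and Cyp1b1 went from 9.62 to 8.57. The mean of the fibroblast list was 10.66 in Apc +/+ and 11.19 in Apc Min/Min, the opposite order to Cyp1b1. Beside it, Dcn and Postn of 8 measured fibroblast markers, Lyz2 and Tyrobp of 3 immune markers, Krt8 of 5 epithelial markers and Cdx2 of 5 trophoblast markers were at least 2-fold higher in Apc Min/Min, and the trophoblast markers Gata3 and Tfap2c lower. Lyz2 was at 7.77 in Apc +/+ and 10.59 in Apc Min/Min, and Cdx2 at 7.04 and 9.48. The part of these genes in the members' differences was not tested. Per the labels' protocols Apc Min/Min ESCs may have been grown in another medium, which cannot be told apart from the genotype.

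With dox, S33 ESCs had 1 of 27 members 2-fold higher and 1 lower, where 0.986% and 2.18% of all genes were. Cyp2s1 went from 9.35 to 10.49 (1.14) and Cyp1b1 from 8.27 to 7.10 (-1.17). Beside Cyp1b1, 5 of 8 fibroblast markers were 2-fold lower with dox (list mean 9.51 to 8.47), and their part in its difference was not tested. In S33 MEFs, 0 of 26 members were 2-fold higher with dox and 2 were lower, where 2.5% and 3.71% of all genes were. Gstt1 went from 9.78 to 8.44 (-1.34) and Gstk1, a mitochondrial and peroxisomal transferase, from 10.64 to 9.51 (-1.13). Gstt1 in S33 ESCs was at 9.15 without and 9.10 with dox, and Cyp2s1 in S33 MEFs at 8.45 and 8.13. Whether the dox response differed between the cell types was not tested.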

How the data were processed

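RNA of 18 mouse samples was hybridised to single-colour Affymetrix arrays, per the labels' protocols. The authors deposited linear intensities for 28856 probe sets, and the sources used here give no method of summary or scaling. The 3 empty probe sets were dropped. By the platform annotation, 1 symbol belonged to 21789 probe sets, several to 1621 and none to 5443, and 21698 of the former matched the RefSeq gene table of GRCm38.p6. Log2 intensities were quantile normalized over all arrays, a step added because the deposited arrays did not share a scale. The probe set with the highest mean stood for a gene. A gene was tested if it passed percentile 50 of an array compared. Replicated comparisons used limma 3.58.1 (lmFit, eBayes) in R 4.3.3, two-sided; p was adjusted over all genes by Benjamini-Hochberg and called under 0.05. Contrasts of 1 array per arm were counted at 2-fold. The scripts were tested on simulated data. Members and lists were chosen with earlier results of these data known.

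Genes are named by rule: those 2-fold apart or called in each comparison, up to 12 per class and direction, the 5 steadiest, and a list of standard family members; others are said to be chosen after their values were seen or give context within a family. Nothing in the labels says that replicates were cultured apart, so p-values may measure technical spread, and the number of arrays limits the precision. Derivatives share a number with their line of origin, per the labels, and deviations correlated at 0.104 and 0.0254 between them. The 2 derivatives lie in different processing sets, so these correlations cannot decide whether the lines should be paired. Alternatives were other scalings, no filter, the mean of probe sets, covariates, single arrays left out, 1.5-fold in place of 2-fold, and, chosen after seeing the data, the processing sets and the pooled 4-OHT fit.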

Additional observations from a re-analysis of the deposited data

How the results depend on the processing

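Counts of organoid members higher than the other classes, and of MEF members lower, stayed within 1.5 times under every alternative run. With #45 and #45-derived arrays only, 2 members were lower in organoids than in pluripotent cells and 11 were higher in MEFs than in pluripotent cells. As deposited, 0 members were lower in RTCs than in ESCs and 0 lower than in derivatives. Within the largest processing set 1 member was higher and 0 lower in RTCs than in ESCs, and 2 were higher in RTCs than in derivatives. Organoid members 2-fold higher with 4-OHT numbered 3 with centring, 3 with no filter, 5 at 1.5-fold and 0 in the pooled limma fit. Lower members numbered 17 as deposited, 24 at 1.5-fold and 0 in the pooled fit, and members below 0 numbered 38 with centring and 95 of 131 with no filter. Apc Min/Min ESCs had 2 higher members with no filter, and 5 lower as deposited, 5 centred and 10 at 1.5-fold. With dox, S33 ESCs had 2 higher as deposited, 2 centred and 5 at 1.5-fold, and 3 lower at 1.5-fold, and S33 MEFs had 1 higher and 5 lower at 1.5-fold. The cause was not tested beyond what each setting changes by construction.

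Leaving out single arrays gave 2 to 4 members lower in organoids than in pluripotent cells and 1 to 2 lower than in MEFs, 48 to 61 and 50 to 60 higher, 1 to 3 higher and 0 to 4 lower in RTCs than in ESCs, 1 to 2 higher and 0 to 2 lower in RTCs than in derivatives, and 0 in MEFs with 4-OHT. Over all genes, these gave 2452 to 2785 higher and 2391 to 2790 lower in organoids than in pluripotent cells (3485 and 3789 with all arrays), 134 to 467 and 100 to 703 in RTCs than in ESCs (388 and 420), and 23 to 207 and 10 to 176 in RTCs than in derivatives (100 and 91). Within the largest processing set the last 2 were 55 and 53, and 56 and 60; as deposited, 213 and 145, and 58 and 23; with centring, RTCs against ESCs had 272 and 595. At 1.5-fold, all genes numbered 752 higher and 594 lower for organoids with 4-OHT, 1322 and 1897 for Apc Min/Min, 521 and 592 for S33 ESCs and 807 and 936 for S33 MEFs, against 239 and 85, 524 and 644, 111 and 245, and 285 and 423 at 2-fold. The replicate block left the RTC and derivative counts at 1 higher and 1 lower (Cyp2s1 1.85, adjusted p = 0.00273; Gstt1 -1.52, 0.0139) and the MEF 4-OHT counts of members at 0, with 54 of all genes higher and 94 lower where 0 were without it; the MEF pairs correlated at 0.855, with only 2 pairs and with each pair in its own processing set. Among values of single named genes under all alternatives, 1293 kept their call, 74 lost it, 6 gained it and 0 reversed.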
